A study of Mus musculus with 8 samples.

Results

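The cytosolic ribosome is built from a small 40S and a large 60S subunit, and the genes of its proteins were followed here in mouse 3T3-L1 cells exposed to medium conditioned by human HL-60 cells. Members were chosen by symbol: Rps or Rpl followed by a number, with Rplp0, Rplp1, Rplp2, Rpsa and Fau added and S6 kinases and pseudogenes left out. The array holds 86 such protein-coding genes, 33 of the 40S and 53 of the 60S subunit. Of these, 83 had a probe that stood well above background in both replicates of 1 or more groups and were tested, among 25793 genes and unnamed probes in all. The 3 genes that were not well above background, Rpl3l, Rpl10l and Rpl39l, are paralogs of ribosomal proteins, and no change is given for them.

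3T3-L1 is a mouse preadipocyte line that was held in adipogenic medium for 1 week after growth in 10% serum. The cells then received the culture supernatant of HL-60, a human leukaemia line, diluted 2-fold. All supernatants came from HL-60 cells kept for 5 days in 30 nM PMA, a phorbol ester that drives them towards a macrophage-like state. They differed in that the HL-60 cells carried either a mock vector (control) or a knockdown (KD) of USP2, a deubiquitinating enzyme. RNA was taken after 3 h or 6 h, giving 4 groups of 2 arrays, all on 1 slide: control 3 h, KD 3 h, control 6 h and KD 6 h. In these data the knockdown itself cannot be checked, since it was made in the human cells that conditioned the medium and the arrays measure the mouse cells.

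The labels call the arrays biological replicates without saying if 1 batch of supernatant served several wells, and the p-values therefore cover no more than the spread among these samples, which may be technical. The slide position follows the groups, so it cannot be told apart from supernatant or time. Each array had 50.7% to 55.9% of its spots well above background and 0 saturated. Of 10 adipocyte markers, 4 (Pparg, Cebpa, Fabp4 and Lpl) were well above background on all 8 arrays and 5 (Adipoq, Cidec, Cd36, Cfd and Slc2a4) on none, while all 8 preadipocyte or fibroblast markers were. Of 8 macrophage or leukocyte markers 4 (Csf1r, Lyz2, Itgam and Fcer1g) were well above background on all 8 arrays. Ptprc, Adgre1 and Tyrobp were above it on none, and Cd68 has no probe. Of 8 endothelial or muscle markers 4 (Pecam1, Kdr, Acta1 and Des) were above it on all arrays. The other 4 (Cdh5, Tek, Myod1 and Myog) were on none. Whether other cell types contributed to the values below was not tested. The probes report bulk RNA, in which fewer cells and less RNA per cell cannot be told apart.

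Ribosomal proteins are made in near-equal numbers, and cells hold their mRNAs at high and closely matched levels. Most of these mRNAs begin with a terminal oligopyrimidine (TOP) tract, an unbroken run of C and U at the 5′ end, through which the kinase mTOR and the RNA-binding protein LARP1 control whether they are translated. Much of the regulation of this family is therefore translational, and an array of total RNA does not measure it. Several members also have other roles: Rpl5 and Rpl11 bind the p53 regulator Mdm2 together with 5S rRNA, and Rps6 is the phosphorylation target of the S6 kinases.

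A C/T run near the start is shown here because most of these mRNAs begin with a TOP tract. A window from 250 bases before to 50 bases after the annotated start, from RefSeq on GRCm38.p6, was matched for 63 of the 83 genes (74 windows). A run of at least 8 letters made of C and T alone, lying within 25 bases of the start on the gene's strand, was present in 34 of the 63 genes. By window the share was 47.3%, against 19.7% of all 32851 windows in the table. Some runs lie before or after the start, so a run is not the same as a TOP tract. The 14 letters in Rpl4 begin at base -18 from the start, and the 8 in Rpl10a at base 18. The following 8 genes are ones whose values are described further on, and the capitals mark the run.
Rpl27a: ttcgtgagCTCCTCCCTTTTCCCTTTCTgc
Rpl7a: ccccacaaTTCCCTCTTCTTTCTTTCTCCa
Rpl4: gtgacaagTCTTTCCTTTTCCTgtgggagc
Rps26: ccgccggaTCCTCTTTCgagtcttggctcc
Rps6: aagtcgggCCTCTTTTTCgtgacgcctccc
Rpl13a: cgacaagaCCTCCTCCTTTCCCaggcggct
Rps18: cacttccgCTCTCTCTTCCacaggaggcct
Rpl22l1: caagcccgTTCTCTTCCCacggctgcagct

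These stretches lie at chr7:109519183-109519212 (plus strand) for Rpl27a, chr2:26910785-26910814 (plus) for Rpl7a, chr9:64173361-64173390 (plus) for Rpl4 and chr10:128626482-128626511 (minus) for Rps26. For Rps6 the stretch is chr4:86857347-86857376 (minus), for Rpl13a chr7:45128722-45128751 (minus), for Rps18 chr17:33955646-33955675 (minus) and for Rpl22l1 chr3:28805501-28805530 (plus). Each spans the annotated transcription start. The runs are 21 letters long in Rpl7a, 20 in Rpl27a and 14 in Rpl4 and Rpl13a. They are shorter in the other 4, with 11 letters in Rps18, 10 in Rps6 and Rpl22l1 and 9 in Rps26. Searched on both strands of the window, CCGGAAG, the core bound by ETS factors such as GABP, was in 35.1% of members' windows and 8.86% of all windows. AAGATGGC, a core of YY1 sites, was in 12.2% and 2.75%, and the TATA box TATAAA in 10.8% and 13.6%. A match is a string of letters in this window and not a site of binding.

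By the brightest probe of each gene, ribosomal protein transcripts were nearly level over the 8 arrays. Values are the log2 of the processed signal minus the array's 75th percentile, and 82 of the 83 probes were well above background on every array. Rps28, a 40S protein, has 7 values, because its spot on control 3 h replicate 1 was an outlier and was dropped. The median over members was 8.09 and 8.02 in control 3 h, 8.07 and 8.02 in KD 3 h, 8.04 and 7.90 in control 6 h and 7.998 and 7.93 in KD 6 h. The control 6 h pair differed by more than any other pair, the KD arrays at 6 h both lay below those at 3 h, and the pooled replicate SD of this median was 0.064. The range over 8 arrays had a median of 0.27 over members, against 0.69 over everything tested. It stayed under 0.5 for 80 members (96.4%) and for 33.5% of everything tested. Members lie above the 75th percentile of their array, most of them far above, while everything tested takes in dim probes. No set of equal brightness was compared, here or for the shares of everything tested given below. Rpl27 had the smallest range (0.10) and Rpl23 the largest (0.76).

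**Figure D1:**
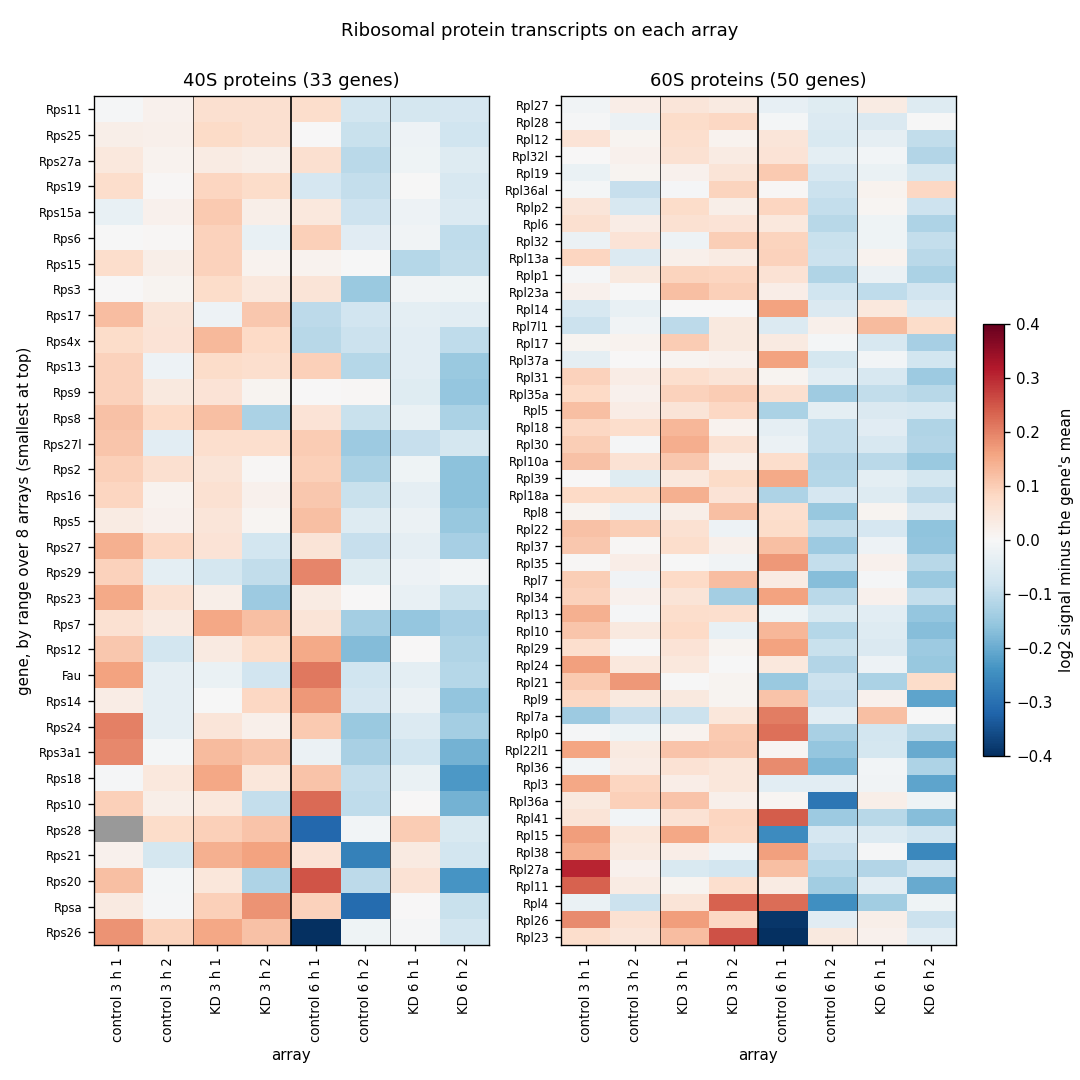
Log2 signal of each of 83 ribosomal protein genes on 8 arrays (columns), relative to the gene's own mean; red is above and blue below it, colours end at 0.4 either side, grey is the dropped Rps28 spot, and genes are ordered by their range over the arrays within each subunit. Most cells are pale; Rps26, Rpl26 and Rpl23 are darkest on control 6 h replicate 1.

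The members with the widest ranges had 1 array apart from the rest. Rpl23, a 60S protein, read 8.29 and 8.27 in control 3 h, 8.34 and 8.47 in KD 3 h, 7.71 and 8.26 in control 6 h and 8.24 and 8.18 in KD 6 h. Control 6 h replicate 1 was the lowest of the 8 by far, and the other 7 lay together. Rps26, a 40S protein at the mRNA exit site, read 8.09, 8.004, 8.07 and 8.03 at 3 h, then 7.47 and 7.90 in control 6 h and 7.91 and 7.84 in KD 6 h. Rpl26, a 60S protein, read 7.29 on control 6 h replicate 1 and 7.64 on replicate 2, against 7.59 to 7.87 on the other 6 arrays. Again control 6 h replicate 1 stood below every other array. These are the brightest probes of the genes. Rps26 has no other tested probe, but on control 6 h replicate 1 the next probe of Rpl23 read 8.26, its highest value (8.07 to 8.22 elsewhere), and the third probe 3.60, beside 3.61 on replicate 2. The further probes of Rpl26 read 7.37 and 5.96 on replicate 1, above the 7.21 and 5.88 of replicate 2, so the low values of Rpl23 and Rpl26 belong to 1 probe each. The same array held the lowest value of Rps28 (8.23, against 8.48 to 8.66 elsewhere). The elongation factor Eef2, also a TOP mRNA, read 5.79 there and 6.79 to 6.94 on the other 7 arrays. In the control 6 h pair the median replicate gap was 0.18 for members, against 0.060 in control 3 h, 0.042 in KD 3 h and 0.086 in KD 6 h. For the members with the widest gaps in this pair, values are given with and without its arrays. Leaving out 1 array leaves 1 in its group and takes the gap of that pair out of the fitted spread. A call in such a fit is therefore not read as a result. For Eef2 the 6 h knockdown difference was 0.49 (limma adjusted p = 0.43), -0.021 without replicate 1 and 1.00 without replicate 2.

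The first question was whether supernatant of USP2 knockdown cells changed ribosomal protein transcripts. At 3 h, 0 of 83 members passed the test (limma, Benjamini-Hochberg adjusted p under 0.05), where 0.244% of everything tested did. At 6 h, 0 of 83 passed, against 2.28% of everything tested. With both times averaged, 0 of 83 passed, against 3.11%. In these 3 comparisons 0 members had an unadjusted p under 0.05, against 10.6%, 19.3% and 19.7% of everything tested, and the smallest adjusted p of a member was 0.55 at 3 h (Rps23), 0.37 at 6 h (Rps15) and 0.31 averaged (Rps23). For the difference between the 6 h and 3 h effects 0 members passed, with 0 at an unadjusted p under 0.05 (8.79% of everything tested), and 0% of everything tested passed.

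The intervals are per gene, for the brightest probe and the scaling as reported, and cover only the spread among these samples. Another scaling moves them: with the array median the averaged member median was 0.11, against -0.016 as reported. For the averaged knockdown effect the 95% interval lay within 0.5 either side of 0 on the log2 scale for all 83 members, which held for 74.1% of everything tested. At 3 h it did for 80 members, with Rpl27a, Rpl23 and Rpl4 wider, and at 6 h for 77, with Rpl41, Rps20, Rps28, Rpl26, Rps26 and Rpl23 wider. For the difference of effects it did for 64 members. Within 1 either side of 0 it lay for all 83 in each of the 6 comparisons made. The median standard error of a single-time effect was 0.090 over members and 0.11 over everything tested.

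**Figure D2:**
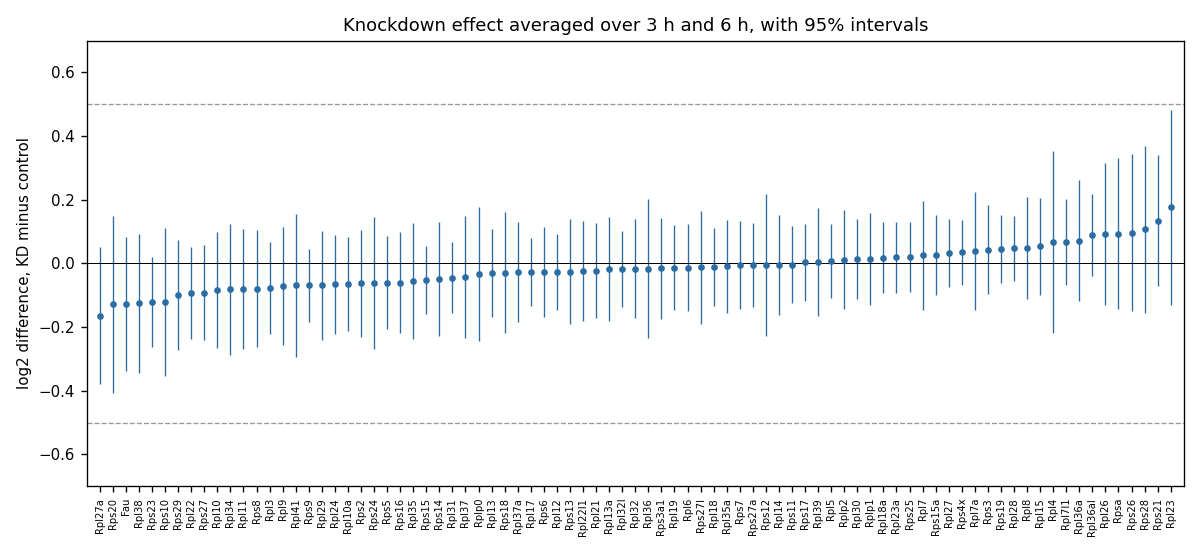
Knockdown minus control supernatant, averaged over 3 h and 6 h, as log2 difference (points) with limma's 95% interval (bars) for 83 ribosomal protein genes ordered by size; dashed lines mark 0.5 either side of 0. Every bar crosses 0 and stays inside the dashed lines.

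As a group the members had a median log2 difference (KD minus control) of 0.018 at 3 h, where the median of everything tested was -0.016. At 6 h the medians were -0.062 and 0.000, and averaged over times -0.016 and -0.011. The sign of these member medians is not fixed by the data: without scaling the 3 h median was -0.038, and under array-median scaling the 6 h and averaged medians were 0.12 and 0.11. The 40S and 60S sets gave like medians, 0.027 and 0.016 at 3 h and -0.066 and -0.061 at 6 h. At 3 h the arrays of the 2 groups did not overlap, KD higher, for 29 of 82 members with 4 values, against 20.5% of everything tested, and KD lower for 12, against 26.8%. At 6 h non-overlap was seen for 4 higher and 5 lower of 83, against 26% and 21.7%.

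**Figure D3:**
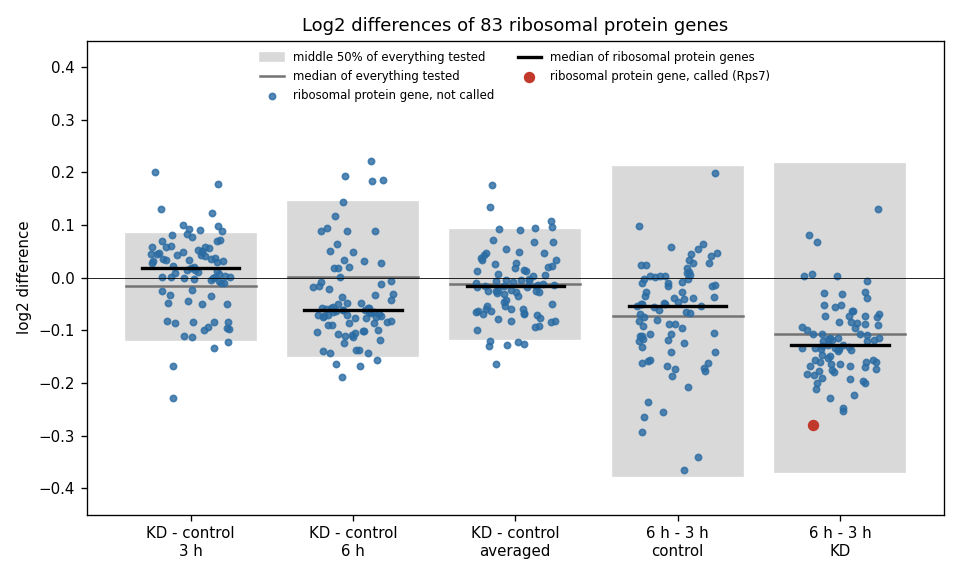
Fitted log2 differences of 83 ribosomal protein genes (points) in 5 comparisons, with their median (black line) beside the median (grey line) and middle 50% (grey box) of everything tested. All points lie between -0.37 and 0.22, the called gene Rps7 is red, and most fall inside the grey boxes, which are much taller for the time comparisons.

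Among 40S proteins, Rps6, the S6 kinase target, read 7.76 and 7.77 in control 3 h, 7.85 and 7.73 in KD 3 h, 7.85 and 7.72 in control 6 h and 7.75 and 7.66 in KD 6 h. The groups overlap at both times. Its averaged difference was -0.026 ± 0.057 (standard error, 95% interval -0.17 to 0.12, limma adjusted p = 0.83). Rpsa, the 40S protein also known as the laminin receptor precursor, read 8.27, 8.23, 8.33 and 8.42 at 3 h and 8.33, 7.93, 8.24 and 8.15 at 6 h, in the order control, control, KD, KD. Its averaged difference was 0.093 ± 0.096 (limma adjusted p = 0.63). Between times with control supernatant it was -0.12 in the full data, -0.32 without control 6 h replicate 1 and 0.076 without replicate 2. Rps21 read 6.31 and 6.22 in control 3 h and 6.43 and 6.45 in KD 3 h, so the 3 h groups did not overlap, and 6.34 and 6.02 against 6.32 and 6.22 at 6 h, where they did. Rps18, often used as a reference gene, differed by -0.029 ± 0.077 on average (adjusted p = 0.86).

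Rps27a and Fau are made as fusions, of ubiquitin and of a ubiquitin-like protein, with a ribosomal protein. Rps27a read 8.79, 8.76, 8.78 and 8.77 at 3 h and 8.81, 8.64, 8.73 and 8.70 at 6 h, in the same order, a range of 0.17. Its averaged difference was -0.0062 ± 0.053 (95% interval -0.14 to 0.13, limma adjusted p = 0.96). Fau read 9.19, 8.996, 9.01 and 8.96 at 3 h and 9.24, 8.95, 8.99 and 8.92 at 6 h. In both control groups replicate 1 was the higher array, and the averaged difference was -0.13 ± 0.085 (limma adjusted p = 0.46). The 6 h difference was -0.14, and leaving out control 6 h replicate 1 or 2 gave 0.0022 or -0.29, with no call.

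Among 60S proteins the stalk, which recruits elongation factors, is formed by Rplp0, Rplp1 and Rplp2. Rplp0, a common reference gene, read 8.69, 8.68, 8.71 and 8.80 at 3 h and 8.92, 8.57, 8.62 and 8.59 at 6 h, in the same order of arrays. The highest value, on control 6 h replicate 1, came from the group with the widest replicate gap. Its 6 h difference was -0.14, 0.038 without that array and -0.31 without replicate 2, with no call. The averaged differences were -0.034 ± 0.085 for Rplp0, 0.014 ± 0.058 for Rplp1 and 0.012 ± 0.063 for Rplp2, none of them called. Rpl13a, another reference gene, read 7.62, 7.48, 7.56 and 7.57 at 3 h and 7.63, 7.45, 7.55 and 7.43 at 6 h. Its averaged difference was -0.019 ± 0.066 (95% interval -0.18 to 0.14, limma adjusted p = 0.90).

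Rpl5 and Rpl11, the partners of 5S rRNA, had averaged differences of 0.0065 ± 0.047 and -0.082 ± 0.076 (limma adjusted p = 0.95 and 0.60). Rpl5 read 6.81, 6.72, 6.74 and 6.77 at 3 h and 6.56, 6.65, 6.63 and 6.62 at 6 h, so supernatants overlapped at both times. The extremes of the family were small. Rpl27a was lowest at 3 h (-0.23 ± 0.12) and averaged (-0.16 ± 0.087), reading 8.31 and 8.02 in control 3 h against 7.95 and 7.93 in KD 3 h. The 3 h groups did not overlap, but control replicate 1 alone stood far above the rest. Rpl4 was highest at 3 h (0.20 ± 0.16), with 6.65 and 6.59 in control and 6.73 and 6.91 in KD, and Rpl41 lowest at 6 h (-0.19 ± 0.13). Without control 6 h replicate 1, on which Rpl41 read 8.82 against 8.44 on replicate 2, that difference was 0.0039, and without replicate 2 it was -0.38, with no call.

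Rpl23 had the highest knockdown difference at 6 h, 0.22 ± 0.18 (limma adjusted p = 0.52), and averaged, 0.18 ± 0.12. With 1 array left in control 6 h, it was 0.50 at 6 h and 0.31 averaged without replicate 2. Without control 6 h replicate 1, the array on which it was low, it was -0.051 and 0.039. Rps26 at 6 h was 0.19 in the full data, -0.021 without that array and 0.41 without replicate 2, and Rpl26 0.18, 0.012 and 0.36, all without a call. The other probes of Rpl23 and Rpl26 had mean 6 h differences of 0.011 and -0.025 in the full data.

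Paralogs can replace or accompany their parent protein in some tissues. Of the 8 listed, 4 were tested and 0 were called for the knockdown. Rpl22l1, paralog of Rpl22, had an averaged difference of -0.024 ± 0.063 and Rpl22 of -0.094 ± 0.058. Rps27l, a p53-induced paralog of Rps27, had -0.012 ± 0.072 and Rps27 -0.093 ± 0.060. For Rpl36al the value was 0.089 ± 0.052 and for Rpl7l1 0.067 ± 0.054. Rps4l is annotated as a transcribed pseudogene, and its 1 probe was not above background.

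Other parts of the translation machinery were not called for the knockdown either, at 3 h, 6 h or averaged, where 0.244%, 2.28% and 3.11% of everything tested were. That was 0 of 22 other TOP mRNAs, 0 of 33 initiation factors, 0 of 78 mitochondrial ribosomal proteins, 0 of 18 genes of mTOR and TOP regulation, 0 of 9 assembly factors and 5S RNP genes and 0 of 6 ribosomal S6 kinases of the Rps6ka family. Some alternatives added calls at 6 h and averaged, mostly of higher initiation factors and assembly factors. The share of everything tested that was called also changed with the setting, so these calls are not read as a trait of the lists. At an unadjusted p under 0.05 and 6 h, 11 of the 33 initiation factors passed, against 19.3% of everything tested, and 31 lay above 0, against 50.05%, with a median log2 difference of 0.15. The smallest adjusted p among the assembly factors at 6 h was that of Rrs1 (0.43 ± 0.084, limma adjusted p = 0.071).

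The second question was how these transcripts moved between 3 h and 6 h. With control supernatant 0 of 83 members passed the test, where 39.9% of everything tested did, and with KD supernatant 1 did, again against 39.9%. At an unadjusted p under 0.05 the numbers were 7 and 10, against 47.9% and 49.3% of everything tested. The member medians (6 h minus 3 h) were -0.054 with control and -0.13 with KD supernatant, beside medians of -0.074 and -0.11 over everything tested. Their sign changed under other scalings, to 0.12 with control supernatant (75th percentile over probes detected on all arrays) and to 0.033 with KD supernatant (no scaling). The 95% interval lay within 0.5 either side of 0 for 79 and 78 members, and for 35.7% and 34.2% of everything tested.

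The 1 called member was Rps7, a 40S protein that also binds Mdm2. It read 7.41 and 7.37 in KD 3 h and 7.10 and 7.12 in KD 6 h, so all 6 h values lay below all 3 h values. With KD supernatant it fell by 0.28 ± 0.079 (95% interval -0.48 to -0.084, limma adjusted p = 0.036). For calls of lower genes the share over everything tested was 22.2%. In the control groups it read 7.31 and 7.29 at 3 h and 7.30 and 7.11 at 6 h, a difference of -0.091 ± 0.079 (adjusted p = 0.42). The difference between the effects was not called (-0.19 ± 0.11, adjusted p = 0.66). The call was lost in 10 of 22 alternatives: with quantile normalization, no scaling, scaling on detected probes, no filter, and without any 1 of the 6 arrays outside control 6 h (adjusted p 0.067 to 0.15).

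With KD supernatant Rps3a1 and Rpl22l1 came next, at -0.25 ± 0.091 and -0.25 ± 0.090 (limma adjusted p = 0.075 and 0.076). Rpl22l1 read 6.79 and 6.78 in KD 3 h and 6.60 and 6.47 in KD 6 h, without overlap. Rpl7l1 was highest, 0.13 ± 0.077, reading 0.16 and 0.31 at 3 h and 0.39 and 0.34 at 6 h. With control supernatant the lowest were Rps26 (-0.37 ± 0.14) and Rpl26 (-0.34 ± 0.13), followed by Rpl23 (-0.29 ± 0.18), none called. Without control 6 h replicate 1 they were -0.15, -0.17 and -0.021. Without replicate 2, which leaves only the low array in that group, they were -0.58, -0.51 and -0.57. The other probes of Rpl26 and Rpl23 had mean differences of -0.079 and -0.021 in the full data. Rpl7a, a 60S protein, was highest with control supernatant, 7.01 and 7.06 at 3 h and 7.36 and 7.11 at 6 h, a difference of 0.20 ± 0.11 (limma adjusted p = 0.20). Leaving out control 6 h replicate 1 gave 0.077 and leaving out replicate 2 gave 0.32, with no call. Its probes disagree: a further probe of Rpl7a, which read 6.81 and 6.85 at 3 h and 6.59 and 6.48 at 6 h, fell by 0.29 ± 0.065 (adjusted p = 0.015 over all probes).

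The arrays did not overlap, 6 h lower, for 63 of 83 members with KD supernatant, against 47.8% of everything tested, and 6 h higher for 2, against 29.7%. With control supernatant these were 27 and 1 of 82, against 40.6% and 26.8%. Counts of called members turn on scaling: with array-median scaling limma called 12 members with KD and 33 with control supernatant, all lower, against 40.3% and 46.5% of everything tested in either direction, and under the same scaling the median of everything tested itself moved to -0.17 and -0.25. Relative to that median, members differed by -0.0098 to 0.049 with control and by -0.021 to 0.064 with KD supernatant over 6 settings of scaling or background. Settings that shift each array by 1 constant leave this difference almost unchanged by construction, so only normexp and quantile normalization could move it. With control and KD supernatant it was 0.020 and -0.021 as reported, -0.0098 and -0.0029 with normexp, and 0.049 and 0.064 with quantile normalization. For the knockdown that difference was 0.018 to 0.034 at 3 h and -0.062 to -0.0060 at 6 h. Without the filter on dim probes everything tested takes in many more probes, and the difference was -0.18 with control and -0.20 with KD supernatant, and for the knockdown 0.11 at 3 h and 0.094 at 6 h.

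**Figure D4:**
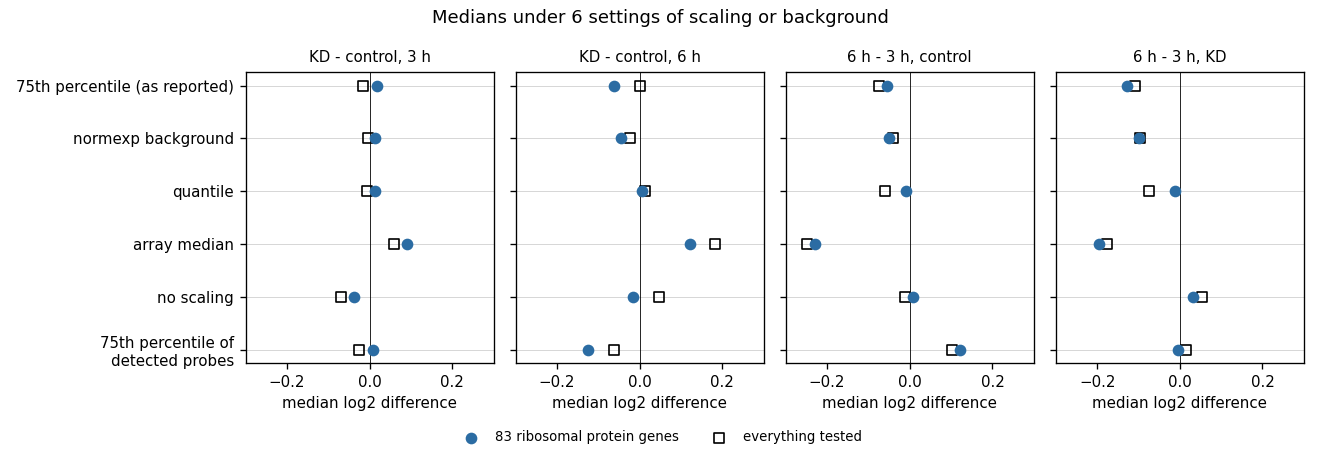
Median log2 difference of 83 ribosomal protein genes (filled circles) and of everything tested (open squares) in 4 comparisons (panels) under 6 settings of scaling or background correction. Circles and squares shift together from row to row, across 0 in all 4 panels, and stay within 0.064 of each other.

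The members were also split by the C/T run near their start, as a description with no test. The split is not one of TOP against other mRNAs. With control supernatant the median time difference was -0.041 over the 34 genes with a run, -0.080 over 29 whose window had none and -0.035 over 20 without a window in the table. With KD supernatant these were -0.12, -0.13 and -0.13. For the averaged knockdown effect they were -0.018, -0.015 and -0.016.

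The 83 genes had 171 tested probes, and 51 genes had more than 1. The widest gap between the fitted differences of 1 gene's probes had a median of 0.082 for the knockdown at 3 h and 0.10 at 6 h, and of 0.11 and 0.095 between times with control and KD supernatant. The largest such gaps were 0.37, 0.66 (Rpl6), 2.09 and 1.57 (both Rps15a), in the same order. The brightest probe and the mean of the others had the same sign for 27, 26, 44 and 47 of the 51 genes. For the knockdown the probes of a gene thus often disagree in sign. In the first 3 comparisons, of the knockdown, 0 of 171 probes were called, against 0.223% of all 30106 probes at 3 h, 2.21% at 6 h and 3.08% averaged. Between 3 h and 6 h, 11 probes were called lower with control and 12 with KD supernatant and 0 higher, against 24.9% and 23% of all probes lower and 16.1% and 17.6% higher. Only the called Rps7 probe, with KD supernatant, was the brightest of its gene. The others were further probes. A dim further probe of Rps15a was above background at 3 h and not at 6 h, and was at least 1.99-fold lower with control and 2.80-fold lower with KD supernatant (adjusted p = 0.00054 and 0.0012). The brightest Rps15a probe read 7.56, 7.61, 7.70 and 7.62 at 3 h and 7.63, 7.51, 7.57 and 7.54 at 6 h, in the order control, control, KD, KD. A dim Rpl6 probe was at least 1.22-fold lower with control supernatant (adjusted p = 0.018). Which transcripts or pseudogene copies each probe binds was not tested.

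Genes of other translation lists were called in number between 3 h and 6 h; over everything tested, 23.6% was called lower and 16.3% higher with control supernatant, and 22.2% lower and 17.7% higher with KD supernatant. The 9 assembly factors and 5S RNP genes include Mdm2, which Rpl5 and Rpl11 bind. Of the 9, 7 fell and 0 rose with control supernatant and 6 fell and 0 rose with KD supernatant. Their median differences were -0.54 and -0.50. The list's median was below 0 under all 23 settings run, in which 3 to 8 and 2 to 6 genes fell. Rrs1, which brings Rpl5, Rpl11 and 5S rRNA into the 60S subunit, read 2.77 and 2.77 in control 3 h, 2.99 and 2.90 in KD 3 h, 0.87 and 1.05 in control 6 h and 1.37 and 1.42 in KD 6 h. It fell with both, by a log2 difference of -1.81 ± 0.084 with control and -1.55 ± 0.084 with KD supernatant (limma adjusted p = 0.00012 and 0.00018), with no overlap. Grwd1, the chaperone of Rpl3, fell too (-1.32 ± 0.069 and -1.25 ± 0.069), as did Rpf2, the partner of Rrs1 (-0.95 ± 0.12 and -0.50 ± 0.12). For Rpf2 with KD supernatant the call was lost without scaling, without the filter, and without KD 3 h replicate 1 or KD 6 h replicate 1. Their clients were not called: with control and KD supernatant Rpl5 showed -0.16 ± 0.067 and -0.13 ± 0.067, Rpl11 -0.19 ± 0.11 and -0.16 ± 0.11, and Rpl3 -0.16 ± 0.082 and -0.15 ± 0.082. Rpl3 read 7.76, 7.69, 7.63 and 7.65 at 3 h and 7.56, 7.56, 7.59 and 7.39 at 6 h, in the order control, control, KD, KD, with every 6 h value below every 3 h value. A further probe of Rpl11 was called lower with KD supernatant (-0.45 ± 0.12, limma adjusted p = 0.029 over all probes).

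Of 33 initiation factors, 21 fell and 0 rose with control supernatant (median -0.39), and 14 fell and 1 rose with KD supernatant (median -0.16, but 0.0023 without scaling). Over the settings 7 to 27 fell with control and 5 to 16 with KD supernatant. Eif1a, a scanning factor of the small subunit, read 5.00, 4.94, 5.18 and 5.11 at 3 h and 3.27, 3.27, 3.55 and 3.57 at 6 h, in the same order. Its differences were -1.70 ± 0.060 and -1.58 ± 0.060 (limma adjusted p = 0.00010 and 0.00011). The eIF3 subunit genes Eif3j1 and Eif3a fell with control supernatant (-1.41 ± 0.072 and -1.14 ± 0.058) and with KD supernatant (-1.26 ± 0.072 and -0.93 ± 0.058).

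Of 18 genes of mTOR and TOP regulation, 10 fell and 3 rose with each supernatant, with medians of -0.36 and -0.38 that stayed below 0 in all settings, in which 4 to 11 and 2 to 10 fell. Larp4 and Larp4b, RNA-binding proteins of the La family, fell with control (-1.39 ± 0.076 and -1.11 ± 0.085) and with KD supernatant (-1.29 ± 0.076 and -0.92 ± 0.085). Larp1, the TOP-binding repressor, fell by 0.48 ± 0.084 with control supernatant (limma adjusted p = 0.0066), a call lost without scaling, and showed -0.11 ± 0.084 with KD supernatant (adjusted p = 0.36). Mtor itself was not called (0.060 ± 0.068 and 0.17 ± 0.068). Of the 6 Rps6ka kinases 2 fell with each supernatant, and 0 rose with control and 2 with KD supernatant (1 to 2 fallen and up to 3 risen over the settings).

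Other TOP mRNAs and the ribosomal proteins of mitochondria are the lists nearest to the family in kind. Of 22 other TOP mRNAs 3 fell and 0 rose with each supernatant. With control supernatant these were Cct2, Eef1g and Eif3e, whose calls were lost in 9, 14 and 6 of 22 alternatives. With KD supernatant they were Eif3e, Eif3f and Eif4b, lost in 7, 16 and 10. The last 3 are initiation factors kept in this list. Medians and counts here are of all 22 genes. The medians were -0.064 and -0.10, turning to 0.11 and 0.057 under other scalings, and 0 to 8 and 0 to 4 genes fell over the settings. The elongation factor Eef1a1 showed 0.20 ± 0.091 and -0.11 ± 0.091, and Rack1, a scaffold on the 40S subunit, 0.0078 ± 0.12 and -0.038 ± 0.12, all uncalled. Of 78 mitochondrial ribosomal proteins, 19 fell and 8 rose with control and 12 fell and 12 rose with KD supernatant, against 0 and 1 of the 83 cytosolic ones that fell. Over the settings the mitochondrial counts ran from 4 to 32 fallen and 1 to 24 risen with control supernatant and from 0 to 16 and 4 to 21 with KD supernatant. Mrpl50 fell (-0.71 ± 0.069 and -0.62 ± 0.069), though its call with KD supernatant was lost without scaling. Mrpl55 rose by 0.55 ± 0.076 and 0.87 ± 0.076.

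**Figure D5:**
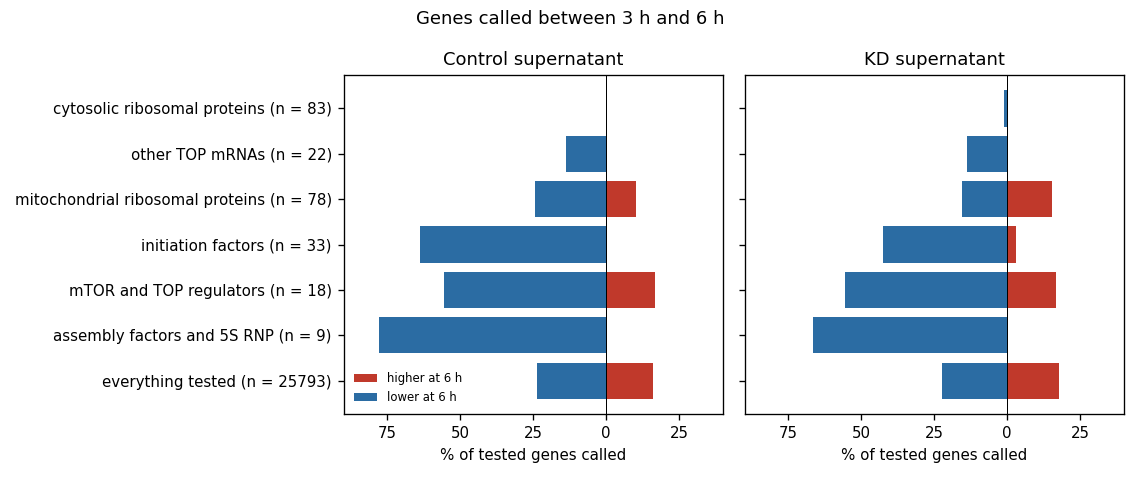
Share of tested genes called lower (blue, left) or higher (red, right) at 6 h than at 3 h, for control (left panel) and KD supernatant (right panel), in the cytosolic ribosomal proteins, 5 lists of other translation genes and everything tested. The cytosolic ribosomal protein bars are empty or show 1 gene, while those of assembly factors and initiation factors reach far to the left.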

How the data were processed

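RNA of 8 samples was measured on 1-colour Agilent arrays (0.1 ug RNA labelled with Cy3, per the labels' protocols). The authors' deposited scanner output gives a processed signal per spot, a background-subtracted intensity on a linear scale, per the file headers, which per the submitters' processing notes came from the software Agilent Feature Extraction (version 10.7.3.1). A deposited value table holds log2 values that equal the log2 processed signal plus 1 shift per array (array medians -4.24 to -3.96; how the shift was chosen is not given in the sources used here).

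Outlier spots (163 to 319 of 59305 per array) were dropped, log2 signals were scaled to the 75th percentile of their array, and the spots of a probe averaged. Of 55681 probes 27235 were named by RefSeq accession and 20 by symbol (GRCm38.p6 names), and 28426 stayed unnamed. Each gene was represented by its brightest probe. Group means were fitted with limma 3.58.1 in R 4.3.3 over all 8 arrays (4 residual and 1.74 prior degrees of freedom), with Benjamini-Hochberg adjustment over all 25793 features in each of 6 comparisons. Errors are standard errors of that fit, and the number of arrays limits the precision. For a dim probe only a bound (at least N-fold) is printed: the bright group's mean over a floor, which is the array's lowest well-above-background signal or the probe's own signal if that is higher. On simulated data with 200 genes changed by 1 log2 unit, 141 were recovered for the 3 h and 142 for the 6 h knockdown contrast, with 10 and 9 false calls. The simulated noise was independent between genes. Changes as small as the members' differences were not simulated, so it does not show whether those would be detected.

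Members and lists were chosen with earlier results of these data known. Named genes were all called members, the 3 highest and 3 lowest members per comparison, the 8 paralogs, 11 members picked for their roles, up to 3 genes of each other list with the smallest p per comparison, and Eef1a1, Eef2, Rack1, Mtor and Larp1. Not every gene that the rule takes is described. Rpl3, Rpl27, Rps15, Rps15a, Rpl6, Rplp1 and Rplp2 were named after their values were seen. Alternatives were background, scaling, filter, probe choice, the deposited table, a replicate block, array weights, an intensity trend, fewer groups and leaving out each array. The files hold a median but no mean spot signal, so normexp used the median. Replicate numbers did not pair the arrays (correlations of deviations -0.047 to 0.087).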

Additional observations from a re-analysis of the deposited data

How the results depend on the processing

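For the 33 ribosomal protein genes that the naming rule takes (those named after their values were seen are not among them), 4280 values were recomputed under 22 alternatives: 4229 kept their side of the threshold, 41 newly passed it, 10 lost it and 0 reversed a call, while 409 differences that passed in neither case changed sign. Knockdown counts of called members stayed at 0, except 1 (Rpl23, higher) at 6 h and averaged without control 6 h replicate 2 (range over left-out arrays 0 to 1), where 7.59% and 7.76% of everything tested was called. Over the settings 14.2% to 47.1% of everything tested was called between times with KD and 14.5% to 46.5% with control supernatant. With KD supernatant the time count, 1 as reported, was 12 with array-median scaling, 9 with an intensity trend, 8 with the mean of probes, 5 with array weights, 3 with the filter on all arrays, 2 with the deposited value table, 0 with quantile normalization, no scaling, the percentile over detected probes or no filter, and 0 to 4 over left-out arrays. With control supernatant, 0 as reported, it was 33 with array-median scaling, 7 with the trend, 3 with the mean of probes and with the deposited table, 2 with the filter on all arrays, 1 with normexp (lower), 1 with the percentile over detected probes (Rpl7a, higher) and 0 to 4 over left-out arrays (4 without control 6 h replicate 2 and 2 without replicate 1). The replicate block gave 3 calls with KD and 1 with control supernatant (Rpl21); the numbers do not pair the samples, and the block changed no other count.

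Member medians moved by more than the replicate SD as follows. With KD supernatant over time they were -0.012 (quantile), -0.20 (array median), 0.033 (no scaling) and -0.0049 (detected probes). With control supernatant they were -0.23 (array median) and 0.12 (detected probes), and -0.15 to 0.024 over left-out arrays. For knockdown they were 0.090 at 3 h, 0.12 at 6 h and 0.11 averaged with the array median, 0.0061 at 6 h with quantile normalization, and -0.14 to 0.018 at 6 h over left-out arrays. For the difference of effects they were -0.0017 (quantile), 0.038 (array median) and 0.030 (no scaling), and -0.15 to 0.0064 over left-out arrays. The cause of these shifts was not tested. The fit to only the groups compared gives no value for the averaged effect or the difference of effects. Having 2 arrays per group limits what can be called, and dim probes of Rps15a and Rpl6 have only bounds.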
